A study of Mus musculus with 24 samples.

Results

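The late-afternoon RPE, sampled 9 h after light onset, was compared with the midday RPE, sampled at 5 and 6 h. The retinal pigment epithelium (RPE) is the pigmented cell layer behind the photoreceptors. The comparison used 8 of the 24 libraries of a daily time course, each a biological replicate, called a mouse here as the table's column names number them: 3 mice at 9 h against 5 at midday, of which 3 were taken at 5 h and 2 at 6 h. Members were chosen by time label alone, except that 6 h mouse 3 was left out because it stood apart in how its counts depended on gene length. All groups were wild-type 129S1/SvlmJ mice with the Leu450 form of Rpe65, raised in cyclic light on a standard diet. All of them were sampled in the light phase; the labels give neither age nor sex. Nothing in the labels says more of how replicates were taken. The p-values measure the spread between these mice, which at midday includes any difference between 5 h and 6 h.

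The RPE takes up the tips that photoreceptors shed each day, returns retinoid to them through the visual cycle, and moves ions, glucose, lactate and fluid between retina and choroid. Outer segment shedding and uptake are best known as a burst soon after light onset, after which phagosomes are broken down in lysosomes and their lipids can be burned by fatty acid oxidation. A cell-autonomous clock, in which activators such as Bmal1 and Clock drive repressors of the Per and Cry families, runs in the RPE as in other tissues.

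Of 16925 genes tested, 1815 (10.7%) passed an adjusted p of 0.05, 925 (5.47%) higher at 9 h and 890 (5.26%) lower. The log2 fold change was positive in 49.6% of genes. In 1552 genes (9.17%) every 9 h mouse lay above every midday mouse, and in 1625 (9.6%) every 9 h mouse lay below. The median log2 fold change over all genes was -0.0026, with an interquartile range of -0.16 to 0.20. Called higher at 9 h were 13 of 21 immediate early genes and 19 of 32 ribosomal protein genes. Called lower were 11 of 19 fatty acid oxidation genes, several chaperones, the kinase Mtor, and 7 of 31 visual cycle and RPE identity genes.

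These counts depend on which libraries entered. With 6 h mouse 3 kept, 1 gene was called, Egr1 (adjusted p = 1.68e-05), and 2068 genes had an unadjusted p under 0.05. A fit of all 24 libraries also called 1 gene, Ahnak (0.00554%), while a fit of 22 libraries, without that mouse and 15 h mouse 3, called 10.3%. In 6 h mouse 3 levels relative to the mean over the 8 libraries used were lower in longer genes (Spearman rho across genes -0.438), and ribosomal protein genes made up 2.59% of counts. Each of the 8, set against the mean of the other 7, had a rho that differed by group, at -0.152 to -0.104 in the 9 h mice and -0.105 to 0.17 in the midday mice, of which only 6 h mouse 2 (-0.105) lay in the 9 h range. The number of called genes was 349 (2.02%) with 9 h mouse 1 left out, and it was 723, 989 and 1050 when 9 h mouse 2, 6 h mouse 1 and 5 h mouse 2 were left out in turn. Total counts were 15642701 to 16779358 at 9 h and 15569324 to 17121986 at midday, so depth was alike in both groups. The tissue label was checked on 10 RPE markers, all of which were detected. Levels are given as CPM, a gene's share of its library's counts after TMM scaling; Rpe65 lay at 4129 to 5449 CPM in the 8 mice and Best1 at only 2.75 to 4.92.

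Immediate early genes, which encode transcription factors and regulators induced within minutes of a stimulus, were higher at 9 h as a group. All 21 tested members had a positive log2 fold change, 13 were called higher and none lower, and their median was 0.65. In 15 of them every 9 h mouse lay above every midday mouse. Over all genes 5.47% were called higher, and in 9.17% every 9 h mouse lay above every midday mouse. Egr1 (ENSMUSG00000038418), a zinc finger factor that follows growth factor and neuronal stimulation, stood at 64.8, 61.0 and 73.5 CPM in the 9 h mice, at 16.1, 18.0 and 18.85 in the 5 h mice and at 21.1 and 17.7 in the 6 h mice. The lowest 9 h mouse lay far above the highest midday mouse, with 66.4 ± 6.44 CPM (SD, n = 3) against 18.4 ± 1.86 (n = 5), a fold of 3.62. Its log2 fold change was 1.86 ± 0.09 (SE; edgeR adjusted p = 2.26e-08), the smallest adjusted p of any gene, and it was called in 20 of 21 other settings.

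Fos (ENSMUSG00000021250; mm10 chromosome 12, 85473890 to 85477273, the build of all gene positions given), a subunit of the AP-1 factor, measured 12.3, 10.4 and 8.82 CPM at 9 h. It measured 3.71, 3.68 and 5.06 at 5 h and 2.78 and 3.30 at 6 h (log2 fold change 1.5 ± 0.19, adjusted p = 0.0009). Nr4a1 (chromosome 15, 101254269 to 101274795), an orphan nuclear receptor, measured 50.4, 47.15 and 41.4 CPM at 9 h against 13.3 to 25.8 at midday (1.27 ± 0.19, adjusted p = 0.00741). In both genes the groups were well separated. Ier2, a nuclear regulator of the same class, rose by 1.08 ± 0.14 (adjusted p = 0.0009), its 9 h mouse 1 being highest at 31.1 CPM and the other 9 h mice at 21.8 and 19.96, against 10.7 to 13.3 at midday. Atf3, a stress-responsive factor, rose by 1.02 ± 0.16 (adjusted p = 0.00263). Other called members were the AP-1 subunits Jun (0.60), Junb (0.88) and Jund (0.50), the Kruppel-like factors Klf2 (0.82) and Klf4 (0.65), Egr3 (1.51), Nr4a2 (0.92) and Ier3 (0.60). Egr3 and Nr4a2 were scarce, at no more than 4.95 CPM in any mouse. Among the 8 members not called, Fosl2 (0.54, adjusted p = 0.0684) and Klf6 (0.23, adjusted p = 0.0633) came nearest, and Nr4a3 (0.13) and Myc (0.15) had the smallest values. Against the 5 h mice alone 11 members were called and against the 6 h mice alone 12; leaving out 9 h mouse 1 left 7.

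Many immediate early genes are known targets of the cyclic AMP response element binding protein, whose core recognition letters are TGACG. The promoters of Fos and Nr4a1 are shown because they carry this run more than once and their genes rose. They give the 250 bases before the RefSeq start site (GRCm38.p6), 5′ to 3′ on the gene's strand, with TGACG on either strand (CGTCA where it lies on the other) in capitals.
Fos (chr12:85473640-85473889, plus strand): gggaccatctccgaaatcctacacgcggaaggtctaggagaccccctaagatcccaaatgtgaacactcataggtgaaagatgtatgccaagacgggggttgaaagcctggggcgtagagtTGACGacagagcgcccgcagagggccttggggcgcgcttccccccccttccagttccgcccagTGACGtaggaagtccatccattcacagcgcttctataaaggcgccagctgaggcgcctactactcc
Nr4a1 (chr15:101266596-101266845, plus strand): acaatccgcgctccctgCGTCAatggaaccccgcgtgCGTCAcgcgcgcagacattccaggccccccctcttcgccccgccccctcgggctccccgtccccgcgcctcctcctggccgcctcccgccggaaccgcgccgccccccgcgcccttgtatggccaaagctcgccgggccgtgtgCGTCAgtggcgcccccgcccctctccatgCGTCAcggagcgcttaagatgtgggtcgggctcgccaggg
Fos has 2 matches and Nr4a1 has 4. The letters were found in 7 of the 10 called members that have a promoter in the table and in 3 of the 5 not called, against 17.8% of all 32851 promoters. Egr1 is not shown. A match describes the letters in this window and is not evidence of binding, and this motif was chosen after the changes were known.

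**Figure D1:**
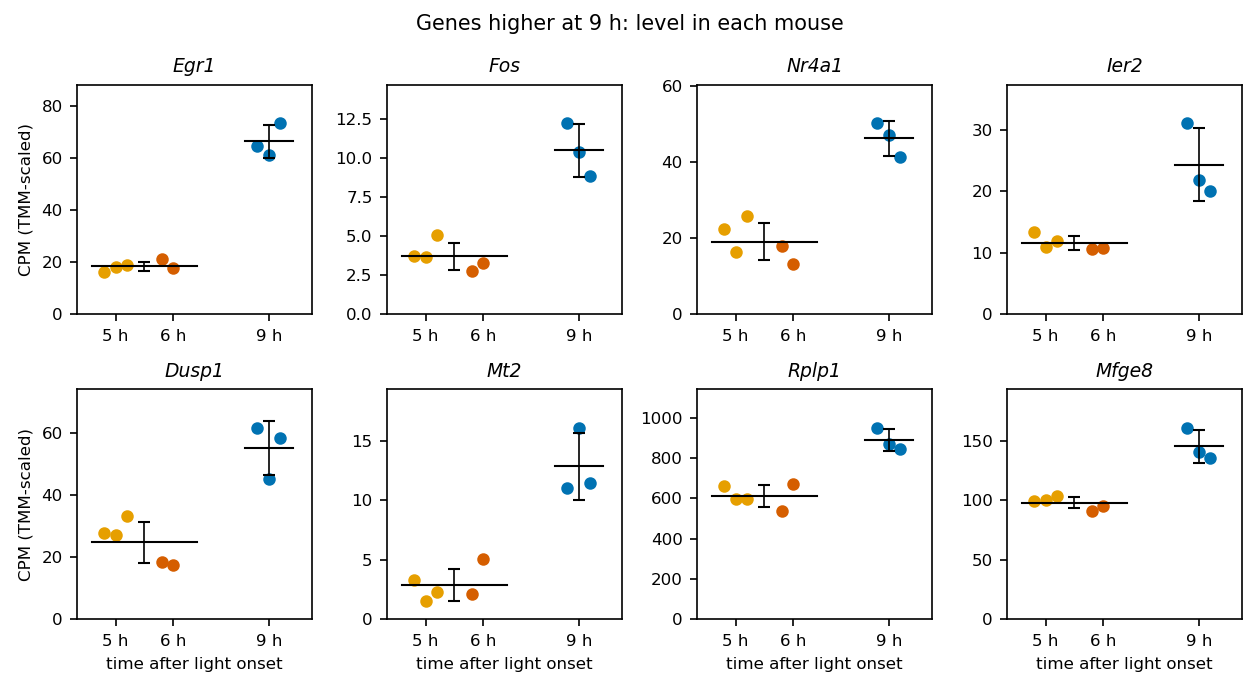
Level of 8 genes higher at 9 h, in CPM with TMM scaling, for each mouse at 5 h, 6 h and 9 h after light onset; black lines give the mean and SD of midday (5 and 6 h together) and of 9 h. In each panel the 3 mice at 9 h lie above all 5 midday mice, as in Egr1, where 61.0 to 73.5 CPM at 9 h compare with 16.1 to 21.1 at midday.

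Marker sums were also examined. The 15 endothelial markers, from the choroid that lies against the RPE, summed to 1735, 1380 and 1114 CPM at 9 h and to 737 to 1117 at midday, a ratio of means of 1.66, with the lowest 9 h mouse just under the highest midday mouse. Of the 15, 4 were called higher (Plvap, Kdr, Esam and Egfl7) and none lower, against 5.47% of all genes called higher. The median was 0.79, and no marker was at 0 in all libraries. The count of called markers ran from 1 (without 5 h mouse 2, 6 h mouse 1, or 9 h mouse 1 or 2) to 9 (without 5 h mouse 3), and was 2 without 5 h mouse 1 or 6 h mouse 2. Over all genes, 207 were called higher without 9 h mouse 1 and 1079 without 5 h mouse 3. Fewer cells of a type and less RNA per cell cannot be told apart in bulk samples. The order of the 9 h mice in the endothelial sum, mouse 1 first, was also the order for Fos and Nr4a1 but not for Egr1, whose highest mouse was mouse 3. These genes were picked, and orders of 3 mice can match by chance, so no conclusion is drawn from them. The part of endothelial or other choroidal cells in the rise of the immediate early genes was not tested.

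Among the 10 largest called rises with a mean of at least 5 CPM and no overlap between groups, Egr1, Fos and Nr4a1 are described above. The largest was Mt2 (ENSMUSG00000031762), a metallothionein that binds zinc and responds to metals and glucocorticoids, at 11, 16.1 and 11.4 CPM in the 9 h mice against 1.56 to 5.02 at midday (log2 fold change 2.16 ± 0.31, adjusted p = 0.00391). The antisense transcript Gm45774 covers 73.5% of its exonic bases, so with reads that carry no strand its level is less certain. Dusp1, a phosphatase that inactivates MAP kinases, measured 61.9, 45.2 and 58.4 CPM at 9 h. At 5 h it measured 27.8, 27.2 and 33.2 and at 6 h 18.4 and 17.6, so the 6 h mice were lowest (1.15 ± 0.23, adjusted p = 0.0245). Mt2 and Dusp1 were the called genes of the 16 tested in the list of the glucocorticoid receptor and its targets (2 higher, none lower, median 0.13). This compares with 5.47% of all genes called higher. The immunoglobulin genes Igha (1.44 ± 0.34, adjusted p = 0.0425) and Igkc (1.37 ± 0.17, adjusted p = 0.00146), expressed by plasma cells, were also in the group; Igha was called in 7 of 21 other settings and the class I antigen gene H2-Q7 (1.30 ± 0.29) in 10. Igkc measured 30.5, 29.0 and 23.5 CPM at 9 h against 7.37 to 13.8 at midday. The processed pseudogene Gm14303 (1.82 ± 0.15) and the kinesin gene Kif26a (1.17 ± 0.27) made up the rest; pseudogene and class I reads can be shared with near-identical copies, so those values are uncertain.

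The 10 largest falls were led by the long noncoding RNA Gm10076 (-2.35 ± 0.55, adjusted p = 0.0482), whose midday mice spread from 15.6 to 64.9 CPM against 9.92, 4.12 and 7.11 at 9 h. It was called in 8 of 21 other settings and lost its call without any 1 of the libraries except 5 h mouse 3. Several of the rest are known from photoreceptors and retinal neurons. Dgkb, a diacylglycerol kinase, measured 26.0, 21.8 and 29.8 CPM at 9 h against 42.7 to 50.05 at midday (-0.84 ± 0.10, adjusted p = 0.000623). Syt1, the calcium sensor of synaptic vesicles, measured 41.0, 37.4 and 47.4 CPM at 9 h against 65.1 to 91.2 (-0.85 ± 0.12, adjusted p = 0.00372). In both the 9 h mice were clearly the low ones. Others were the glutamate transporter Slc1a7 (-1.0), the deubiquitinase Usp13 (-0.91), the photoreceptor phosphatase Ppef2 (-0.90), the carbonic anhydrase Car3 (-0.88; called in 8 of 21 other settings), Ubap1l (-0.81) and the photoreceptor guanylate cyclase Gucy2f (-0.80). Of the rod markers, 14 of 14 had a negative log2 fold change, 0 of 14 were called, and the median was -1.26. Their sum was 475 to 1093 CPM at 9 h and 718 to 2358 at midday, so the groups overlapped. Cone markers summed to 30.6 to 45.5 against 38.9 to 75.2 CPM. Of these, 2 of 8 were called lower (Pde6c and Gnat2), against 5.26% of all genes. The part of photoreceptor RNA in these falls was not tested.

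In the clock, the activators Arntl, Clock and Rorb fell at 9 h, and the repressors Per3 and Cry1 rose. Arntl (Bmal1; chromosome 7, 113207465 to 113314126), the activator that pairs with Clock or Npas2, measured 5.50, 8.36 and 6.87 CPM at 9 h, 11.9, 12.4 and 10.6 at 5 h and 10.9 and 8.71 at 6 h. Every 9 h mouse lay below every midday mouse (-0.66 ± 0.16, adjusted p = 0.0209). Clock measured 56.75, 61.9 and 65.55 CPM at 9 h against 66.8 to 78.3 at midday (-0.25 ± 0.07, adjusted p = 0.0306). Npas2, the third activator, had a like log2 fold change of -0.60 ± 0.24 but did not pass (adjusted p = 0.12), and one midday mouse lay among the 9 h mice. Of the nuclear receptors that activate Arntl, Rorb fell (-0.32 ± 0.08, adjusted p = 0.0199) and Rora was at -0.12 ± 0.06 (adjusted p = 0.192). The count for the 6 activators was 1 higher and 3 lower with a median of -0.29, against 5.47% and 5.26% of all genes.

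Per3 and Cry1 were the called repressors, 2 of 11 tested, with a list median of 0.05. The share called higher over all genes was 5.47%. Cry1, a late repressor of the loop, measured 24.1, 25.1 and 26.3 CPM at 9 h against 17.95 to 22.3 at midday (0.33 ± 0.09, adjusted p = 0.0339). Per3 measured 113, 118 and 122 CPM at 9 h against 92.9 to 106 (0.23 ± 0.06, adjusted p = 0.0266). Each difference was small but without overlap. Per1 was at 115, 107 and 173 CPM at 9 h and 85.1 to 125 at midday (0.33 ± 0.19, adjusted p = 0.333), the 9 h mice spreading more than the midday mice. Log2 fold changes of Per2 (0.13), Bhlhe40 (-0.03), Bhlhe41 (0.06), Nr1d1 (-0.09), Nr1d2 (0.05), Nfil3 (-0.22), Cry2 (-0.03) and Ciart (-0.01) were not called. None of the 9 output factors and kinases was called, although 8 had positive values and the median was 0.12. Their largest by size was Timeless (0.47 ± 0.23, adjusted p = 0.199), and the output factors Dbp (0.19 ± 0.08, adjusted p = 0.112), Tef (0.12 ± 0.06, adjusted p = 0.227) and Hlf (0.05 ± 0.07, adjusted p = 0.703) lay near their midday levels. The values of Csnk1d (0.02), Csnk1e (0.14), Fbxl21 (-0.11) and Usp2 (0.17) were not called. Of 21 other settings, Clock was called in 8, Per3 and Cry1 in 11, Rorb in 14 and Arntl in 16. None of these 5 was called with 6 h mouse 3 kept.

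The chaperones Hsp90aa1, Hspa8 and Hspa4l of the cytosol and 4 proteins of the endoplasmic reticulum fell at 9 h. Hsp90aa1 (chromosome 12, 110690605 to 110702728), the inducible cytosolic HSP90, measured 868, 827 and 990 CPM at 9 h, 1257, 1315 and 1239 at 5 h and 1434 and 1380 at 6 h (-0.57 ± 0.07, adjusted p = 0.0009). Hspa8 (chromosome 9, 40800984 to 40810087), the constitutive HSC70, measured 602, 610 and 679 CPM at 9 h against 820 to 875 (-0.41 ± 0.06, adjusted p = 0.00129). Both were called in 19 of 21 other settings. The HSP110 relative Hspa4l fell by 0.34, and Cirbp, an RNA-binding protein induced by cold, rose by 0.31 ± 0.07 (adjusted p = 0.0133), at 192, 157 and 155 CPM against 129 to 144. The heat-inducible Hspa1a (0.08) and Hspa1b (0.05), the factor Hsf1 (-0.03) and the cold-inducible Rbm3 (0.05) were not called. In all, 1 of 18 members was higher and 3 lower (median -0.02), against 5.47% and 5.26% of all genes.

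Hspa5 (BiP; chromosome 2, 34771970 to 34777547), the main endoplasmic reticulum HSP70 chaperone and sensor regulator of the unfolded protein response, measured 337, 393 and 349 CPM at 9 h against 451 to 497 (-0.41 ± 0.06, adjusted p = 0.00284). In addition, 3 more of the 24 members tested fell: the HSP70 cochaperone Dnajc3 (-0.27 ± 0.05), the lectin chaperone Canx (-0.24 ± 0.05) and the HSP90 of this compartment, Hsp90b1 (-0.22 ± 0.06, adjusted p = 0.029), which shares 15.7% of its exonic bases with 1810014B01Rik on the other strand. None rose, 20 were not called, the list median was -0.07, and 1 was called without 9 h mouse 1. Over all genes 5.26% were called lower. Hsp90b1 was called in 10 of 21 other settings. Dnajc3 measured 175, 191 and 193 CPM at 9 h against 216 to 233, and Canx 434, 448 and 478 against 521 to 546. The stress markers Ddit3 (0.25), Atf4 (0.05) and Xbp1 (-0.06) did not pass, and Ppp1r15a, a phosphatase subunit that reverses translation arrest, was at 0.27 (adjusted p = 0.0543).

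The endoplasmic reticulum stress response element, CCAAT and CCACG with 9 bases of any kind between them, is bound by NF-Y and ATF6. It was searched on both strands because it is the textbook element of this pathway, and it was chosen with the fall of these 4 genes known. The 4 promoters are shown because each of the genes that fell carries it. Capitals mark each match in the 250 bases before the RefSeq start site (GRCm38.p6).
Hspa5 (chr2:34771840-34772089, plus strand): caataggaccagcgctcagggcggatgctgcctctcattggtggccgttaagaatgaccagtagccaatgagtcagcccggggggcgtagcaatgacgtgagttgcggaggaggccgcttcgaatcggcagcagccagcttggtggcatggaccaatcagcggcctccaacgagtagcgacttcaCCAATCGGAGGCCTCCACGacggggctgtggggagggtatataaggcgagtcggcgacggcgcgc
Hsp90b1 (chr10:86705445-86705694, minus strand): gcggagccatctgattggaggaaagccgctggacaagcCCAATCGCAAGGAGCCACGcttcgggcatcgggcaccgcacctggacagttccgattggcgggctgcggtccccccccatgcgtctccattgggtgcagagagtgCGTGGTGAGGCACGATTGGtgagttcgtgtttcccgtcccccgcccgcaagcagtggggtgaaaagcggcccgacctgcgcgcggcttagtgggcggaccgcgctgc
Dnajc3 (chr14:118937682-118937931, plus strand): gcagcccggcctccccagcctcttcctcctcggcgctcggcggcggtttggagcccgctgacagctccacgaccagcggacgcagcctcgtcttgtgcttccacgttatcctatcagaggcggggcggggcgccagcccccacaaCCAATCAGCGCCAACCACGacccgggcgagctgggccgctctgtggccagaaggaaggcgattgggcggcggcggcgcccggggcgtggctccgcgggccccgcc
Canx (chr11:50325674-50325923, minus strand): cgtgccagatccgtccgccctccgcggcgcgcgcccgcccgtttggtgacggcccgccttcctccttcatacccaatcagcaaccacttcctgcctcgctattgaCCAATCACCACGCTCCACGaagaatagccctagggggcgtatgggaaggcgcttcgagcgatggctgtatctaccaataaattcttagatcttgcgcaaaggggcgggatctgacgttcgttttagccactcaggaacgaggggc
The first match begins 65 bases before the start site in Hspa5, 212 in Hsp90b1, 105 in Dnajc3 and 145 in Canx. Hsp90b1 has a second match on the other strand. All 4 called members held it, as did 3 of the 18 members not called that have a promoter in the table (Calr, Pdia6 and Creld2), against 0.113% of all promoters (37 of 32851). Of those 3, Calr was at -0.19 (adjusted p = 0.105), Pdia6 at -0.14 (adjusted p = 0.124) and Creld2 at -0.03 (adjusted p = 0.893). A match describes the letters in the window and is not evidence of binding. The list gathers genes of the pathway this element is known from, so the comparison with all promoters does not test the falls. The authors' table starts Hspa5 and Hsp90b1 inside the window printed, so their first transcribed base differs between annotations. The window of Nr4a1 shown above lies inside the gene span of that table, well downstream of its first base.

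**Figure D2:**
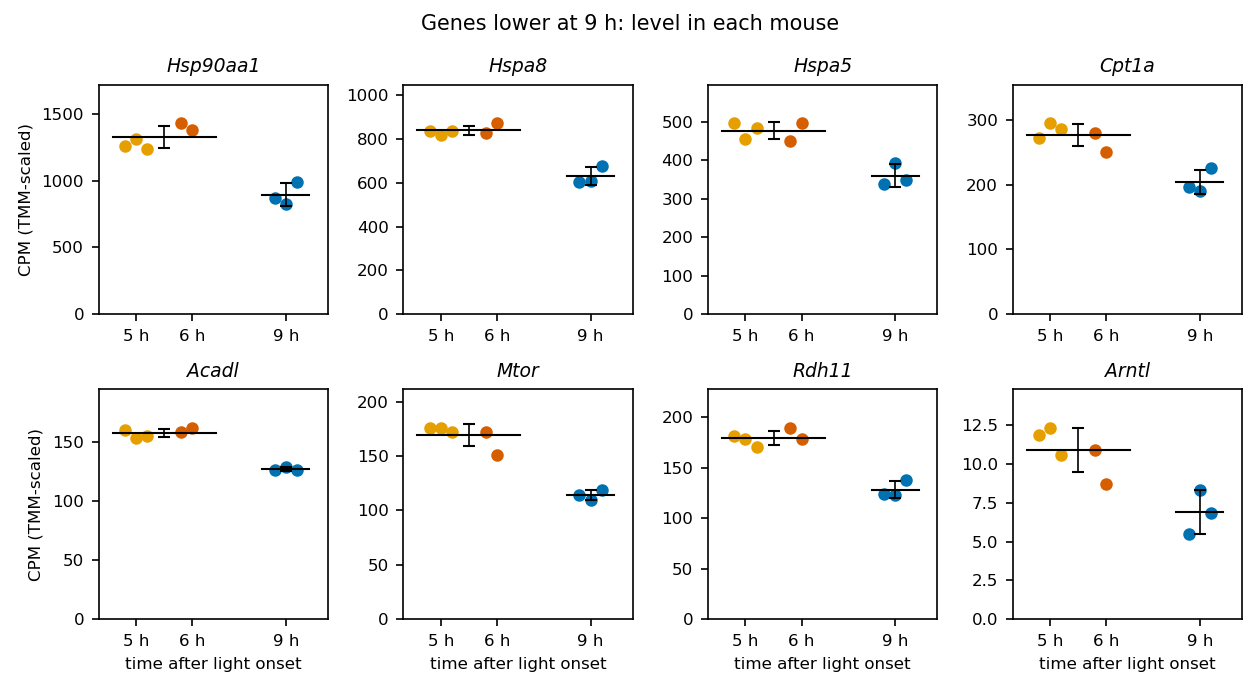
Level of 8 genes lower at 9 h, in CPM with TMM scaling, for each mouse at 5 h, 6 h and 9 h after light onset; black lines give the mean and SD of midday and of 9 h. All axes start at 0. Every 9 h mouse lies below every midday mouse, and Hspa8 shows it at 602 to 679 against 820 to 875 CPM.

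Fatty acid oxidation breaks fats down in mitochondria and peroxisomes, and ketogenesis turns the product into ketone bodies. Of 19 members tested, 11 were called lower and none higher, and in those 11 every 9 h mouse lay below every midday mouse. Over all genes 5.26% were called lower, and in 9.6% every 9 h mouse lay below every midday mouse. The list median was -0.21. Cpt1a (ENSMUSG00000024900; chromosome 19, 3323301 to 3385732), which commits long-chain fatty acids to mitochondria, measured 197, 190.0 and 225 CPM at 9 h, 273, 295 and 286 at 5 h and 280.0 and 250 at 6 h (-0.44 ± 0.07, adjusted p = 0.00284). Acadl, a long-chain acyl-CoA dehydrogenase, measured 127, 129 and 126 CPM at 9 h against 154 to 163 (-0.31 ± 0.05, adjusted p = 0.00294). The spread within each group was small beside the gap. Etfdh, which hands electrons from oxidation to the respiratory chain, fell by 0.41 ± 0.08. The trifunctional protein subunits Hadhb (-0.31) and Hadha (-0.19), the lipid droplet protein Plin2 (-0.31), Cpt2 (-0.28), the carnitine carrier Slc25a20 (-0.27) and the coactivator Ppargc1a (-0.25) were also called lower. Acadvl (-0.20), Acadm (-0.07), Hadh (-0.03), Bdh1 (0.02) and Ppara (0.10) were not called. Against 5 h alone (4.34% of genes called) 6 members fell, and against 6 h alone (8.33%) 7. Leaving out a mouse gave 5 (9 h mouse 1), 6 (6 h mouse 1) or 7 (5 h mouse 2 or 9 h mouse 2).

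Cholesterol genes showed 1 of 25 higher and 5 lower (median -0.14), against 5.47% and 5.26% of all genes. Sqle, which makes squalene epoxide, fell by 0.32 ± 0.07, Fdft1 by 0.32 ± 0.07 and Idi1 by 0.45 ± 0.11, while Abcg1, a sterol exporter, rose by 0.62 ± 0.13. The 5 falls became 0 without 9 h mouse 1, 1 without 9 h mouse 2 and 3 without 6 h mouse 1. Oxidative phosphorylation genes had 2 higher and 1 lower of 30 (median 0.02): Cox7a2 rose by 0.24, Cox7c by 0.26, and Uqcrc2 fell by 0.19. Neither rise was called with gene length offsets, and Uqcrc2 was called in 9 of 21 other settings. These 3 of 30 calls compare with 10.7% of all genes. Transcripts encoded by mitochondria had 13 of 13 positive values with none called (median 0.21); mt-Nd1 had the lowest p (0.24 ± 0.08, adjusted p = 0.0836). Mitochondrial transcripts made up 5.14% to 6.47% of counts at 9 h and 4.42% to 5.54% at midday.

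Among regulators of lysosomes and growth, Mtor was the clearest fall and Tfeb rose. Mtor (chromosome 4, 148448611 to 148557683), the kinase of mTORC1, measured 114, 109 and 118.5 CPM at 9 h, 176, 176 and 172 at 5 h and 172 and 151 at 6 h (-0.57 ± 0.06, adjusted p = 0.000607). The 6 h mouse 2 was the lowest midday mouse and still above the 9 h mice. Tfeb (chromosome 17, 47737030 to 47792419), a transcription factor of lysosomal genes, measured 43.2, 43.4 and 37.7 CPM at 9 h against 27.55 to 33.55 (0.42 ± 0.09, adjusted p = 0.00836). In total 2 of 33 members were called higher and 4 lower (median -0.06), against 5.47% and 5.26% of all genes. The sestrin family member Sesn3 (-0.43 ± 0.08), the small GTPase Rragd (-0.31 ± 0.06) and Tsc2 (-0.18) also fell and Lamtor2 (0.35) rose.

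Core autophagy machinery had few calls: 1 of 46 members was called higher (Atg4d, 0.35) and 1 lower (Tmem41b, -0.28), with a median of 0.0034, and this was near the median of all genes. Atg4d was called in 10 of 21 other settings. Counts in this paragraph read against the 5.47% of all genes called higher and 5.26% called lower. Of 19 selective autophagy receptors, 5 were called lower and none higher (median -0.11): Rtn3 (-0.34), Tax1bp1 (-0.31), Fundc1 (-0.25), Optn and Nbr1 (-0.19). Nbr1 was called in 6 of 21 other settings. Optn (chromosome 2, 5020642 to 5064051), optineurin, measured 95.5, 92.4 and 105.9 CPM at 9 h and 106.1 to 118.5 at midday (-0.21 ± 0.06, adjusted p = 0.0448). Its highest 9 h mouse nearly met its lowest midday mouse, and it was called in 9 of 21 other settings. Sqstm1 (p62) was at 0.12 (adjusted p = 0.151). The receptor count fell from 5 to 0 without 9 h mouse 1, to 1 without 9 h mouse 2, and to 2 without 5 h mouse 2 or either 6 h mouse. Lysosomal hydrolases and cofactors had 8 higher and 4 lower of 52 (median 0.04). Ctsh (0.53 ± 0.08), Ctsz (0.31 ± 0.06), Acp5 (0.53 ± 0.11) and Man2b1 (0.23 ± 0.05) had the smallest adjusted p among the rises, and Ids (-0.28), Arsg (-0.21), Tpp1 (-0.20) and Ppt1 (-0.19) fell. These counts were 1 and 0 without 9 h mouse 1 and 3 and 1 without 9 h mouse 2, and the lower count was 2 without 6 h mouse 1. Lysosomal membrane proteins had 2 higher (Laptm5, 0.48; Cd68, 0.31) and 4 lower of 31, Tmem106b (-0.35) and Cd164 (-0.33) among them (median -0.0022); 1 was lower without 9 h mouse 1 and 2 without 9 h mouse 2. V-ATPase subunits had 2 of each among 18 (median -0.08): Atp6v1f (0.37) and Atp6v0b (0.23) rose, Atp6ap2 (-0.28) and Atp6v1a (-0.20) fell. Of 21 other settings, Atp6v0b was called in 10 and Atp6v1a in 7. Laptm5, Cd68 and Ctss (0.39) are also known from leukocytes, and 6 of 18 leukocyte markers were higher: Lyz2 (0.55), Fcer1g (0.56), Tyrobp (0.48), H2-Ab1 (0.49), Cma1 (0.46) and Cd74 (0.40), while Kit (-0.37) fell. Leukocyte markers summed to 3364, 2983 and 3207 CPM at 9 h against 2409 to 2749, with no overlap and a ratio of 1.26; 2 markers were called higher without 9 h mouse 1. No marker of the list was at 0 in all libraries. The part of leukocyte RNA in the lysosomal rises was not tested.

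Some RPE identity genes fell. Of 31 visual cycle and identity members, 7 were called lower and none higher, with a median of -0.16. Without 9 h mouse 2, 4 were called. The main counts of this paragraph read against the 5.26% of all genes called lower. Rdh11, a retinol dehydrogenase of the visual cycle, measured 124, 122.5 and 138 CPM at 9 h and 170.5 to 189.6 at midday (-0.49 ± 0.06, adjusted p = 0.000659). Kcnj13, an apical potassium channel, measured 202, 254 and 256 CPM at 9 h against 297 to 378 (-0.48 ± 0.09, adjusted p = 0.00883), although 49.1% of its exonic bases are shared with Gigyf2 on the other strand. The other called members were the sodium pump subunit Atp1b1 (-0.37), Ermn (-0.36), Sox9 (-0.32), Krt8 (-0.30) and the retinal G protein coupled receptor Rgr (-0.27). Rpe65, the isomerase of the visual cycle, was at 4235, 4129 and 4554 CPM at 9 h against 4587 to 5449 (-0.21 ± 0.07, adjusted p = 0.0661), without overlap yet not past the test. The 10 RPE markers summed to 37100 to 41400 CPM at 9 h and 41500 to 47100 at midday, a ratio of 0.876, and 3 of 10 were called lower (Ermn, Kcnj13 and Rgr). The melanin and pigment granule list had 5 lower and none higher of 25 (median -0.09): Gpr143 (-0.35), Tyr (-0.34), Rab27a (-0.30), Oca2 (-0.27) and Myrip (-0.23). Tyr, tyrosinase, measured 357, 391 and 428 CPM at 9 h against 449 to 545 at midday. The count of pigment genes called lower was 1 without 9 h mouse 1 or 2 and 9 without 9 h mouse 3.

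Outer segment uptake genes had 3 called higher and 4 lower of 22 (median -0.05), against 5.47% and 5.26% of all genes. Mfge8 (chromosome 7, 79133768 to 79149060), the secreted bridge between phosphatidylserine and integrin, measured 161, 140.5 and 135 CPM at 9 h, 99.2, 100 and 104 at 5 h and 91.5 and 95.7 at 6 h (0.57 ± 0.07, adjusted p = 0.000623). The integrin subunit Itgav that it binds fell by 0.30. Mertk (chromosome 2, 128698956 to 128802894), the receptor that triggers engulfment, measured 201, 211 and 220 CPM at 9 h against 242.5 to 271 (-0.28 ± 0.06, adjusted p = 0.00782). Mfge8 thus lay above all midday mice and Mertk below all of them. Lgals3 (0.38 ± 0.06) and Axl (0.35), the latter a receptor of the same family as Mertk, rose, while Adam9 (-0.37 ± 0.06) and Tub (-0.63) fell. The 4 falls became 1 without 9 h mouse 1 and 2 without 5 h mouse 2 or 6 h mouse 1.

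**Figure D3:**
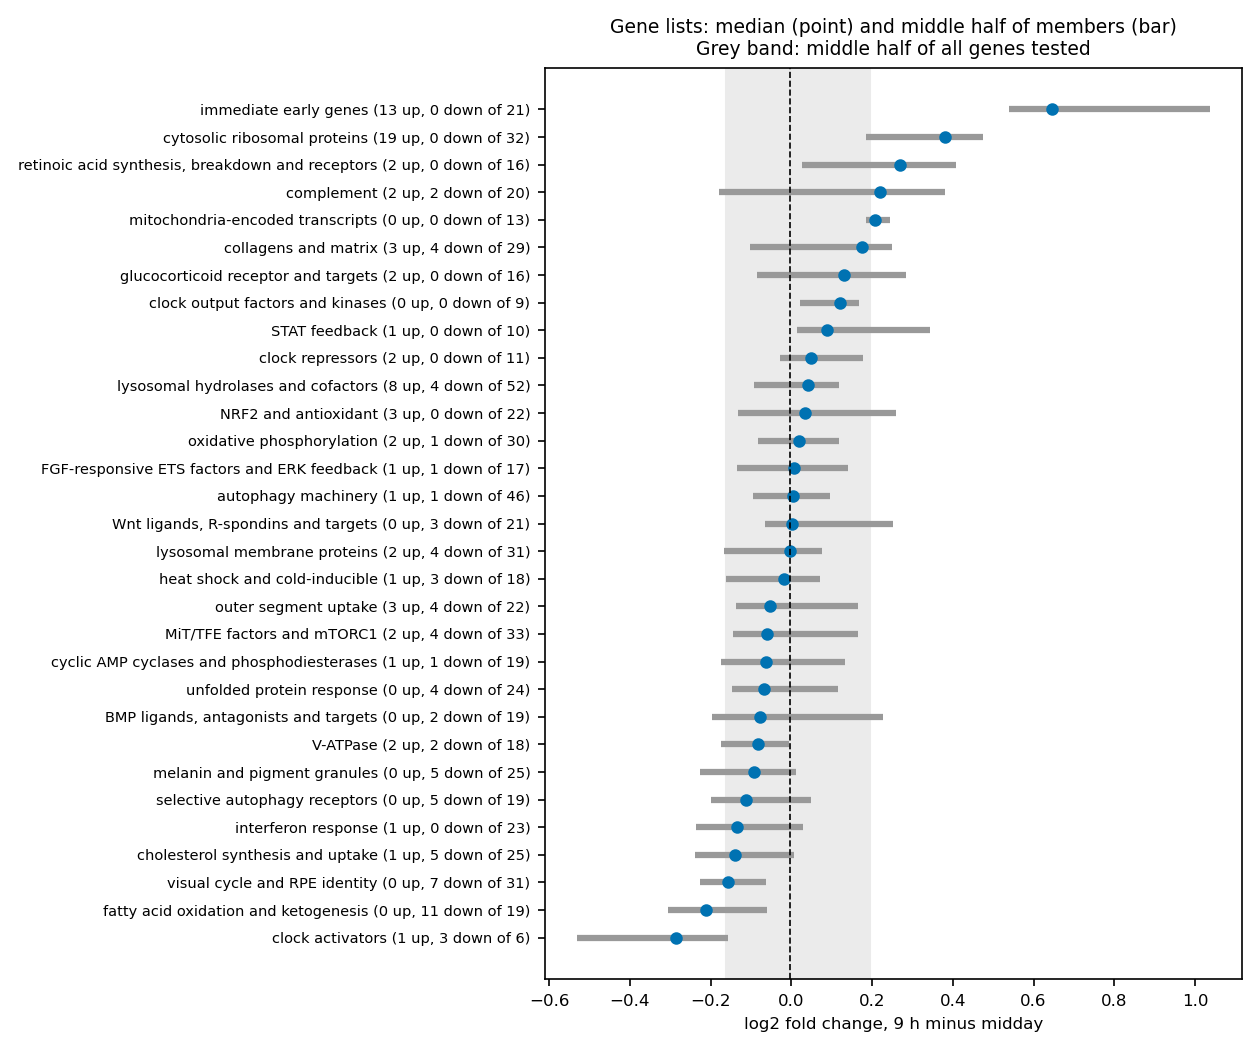
Log2 fold change at 9 h against midday for 31 gene lists. Points give the median of the tested members and bars their interquartile range; the grey band is the interquartile range of all genes tested, and the dashed line their median. Immediate early genes (0.65) and ribosomal proteins (0.38) lie to the right, and fatty acid oxidation (-0.21) and clock activators (-0.29) to the left.

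Cytosolic ribosomal protein genes, which encode the protein part of the translation machinery, rose in part. All 32 had positive log2 fold changes, 19 were called higher and none lower, and the median was 0.38. Among all genes 49.6% had a positive value and 5.47% were called higher. Without 9 h mouse 1, 11 were called, against 2.02% of all genes in either direction. Rplp1 (chromosome 9, 61913284 to 61914542), an acidic stalk protein of the large subunit, measured 951, 870 and 844 CPM at 9 h against 538 to 670 at midday (0.54 ± 0.07, adjusted p = 0.00103). Rps16 rose by 0.61 ± 0.08 and Rps18 by 0.47 ± 0.07. In total, ribosomal protein genes made up 1.66% to 1.82% of counts at 9 h and 1.25% to 1.48% at midday. Ribosomal protein transcripts are short, and log2 fold changes fell with gene length across genes (Spearman rho -0.15, where genes are not independent replicates). Calls had median lengths of 3282 bases for genes higher and 5898 for genes lower, against 3947 for all tested. With genes divided by length into 5 groups of like size, 238 were higher and 37 lower in the shortest and 99 and 336 in the longest. With offsets for gene length 9.78% of genes were called, the ribosomal count was 20 and the median 0.34, the immediate early count 15, and the fatty acid oxidation count 9.

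The counts of the following lists read against the 5.47% of all genes called higher and 5.26% called lower. Retinoic acid genes had 2 of 16 higher (median 0.27): the receptor Rarg (0.56 ± 0.08, at 65.35, 60.2 and 55.1 against 36.8 to 45.3 CPM) and Aldh1a2, a retinoic acid synthesis enzyme (0.60 ± 0.10, at 46.3, 54.01 and 39.6 against 26.3 to 33.6 CPM). Wnt genes had 3 of 21 lower (median 0.0026): Tnfrsf19 (-0.52 ± 0.07, at 50.0, 51.6 and 56.7 against 72.7 to 83.4 CPM), the R-spondin receptor Lgr4 (-0.22) and the antagonist Sfrp1 (-0.20). Lgr4 was called in 9 of 21 other settings and Sfrp1 in 8. BMP genes had 2 of 19 lower (median -0.08), the ligands Bmp6 (-0.24) and Bmp4 (-0.27). Bmp4 was called in 8 of 21 other settings. FGF-responsive ETS factors and ERK feedback genes had Etv1 higher (0.64) and Etv5 lower (-0.27) of 17 (median 0.0054). STAT feedback genes had 1 of 10 higher, Socs2 (0.67; median 0.09). Cyclic AMP cyclases and phosphodiesterases had Adcy7 higher (0.50) and Adcy1 lower (-0.38) of 19 (median -0.06). NRF2 and antioxidant genes had 3 of 22 higher (median 0.03): the peroxidases Gpx1 (0.31) and Gpx3 (0.29) and Gstm1 (0.33). Complement had 2 higher (C1qc, 0.45; C1s1, 0.24) and 2 lower of 20, Clu (-0.21) among them, with a median of 0.22. C1qc was called in 9 of 21 other settings, C1s1 in 8 and Clu in 7, and 0 complement genes were called against 5 h alone. Collagens and matrix had 3 higher, Fn1 (0.54) and Col6a1 (0.38) among them, and 4 lower of 29, Col8a1 (-0.41) and Timp3 (-0.36) among them (median 0.18); 1 was lower without 9 h mouse 1.

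Interferon genes differed within midday. Of the 17441 genes tested for 6 h against 5 h, 16 were called (0.0917%), all lower at 6 h. Apart from Slc6a7, Col10a1 and Synpo2 they are known as interferon-inducible or interferon-related genes, Ifitm3, Ifit1, Rtp4, Xaf1 and Irf9 among them. Irf7, an interferon-regulated transcription factor, measured 20.5, 17.3 and 17.5 CPM at 5 h, 5.95 and 6.16 at 6 h and 11.25, 12 and 11.4 at 9 h (6 h against 5 h, log2 fold change -1.60 ± 0.15, adjusted p = 0.000561). Oasl2 measured 28.2, 27.4 and 24.6 at 5 h, 9.25 and 8.45 at 6 h and 13.5, 17.1 and 20.1 at 9 h. In both, the 9 h mice lay between those of 5 h and 6 h. None of the 16 was called in 9 h against midday. Of 23 interferon list members 1 was called there, Irf1 (0.66 ± 0.13, at 33.05, 32.2 and 27.5 against 14.9 to 24.04 CPM), and the median was -0.14. Over all genes 10.7% were called in that comparison. Against 5 h alone (4.34% of all genes called) 8 members were lower and 1 higher, and against 6 h alone (8.33%) 6 were higher and none lower. For Irf7 and Oasl2 the midday mean joins levels on either side of 9 h.

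Remaining marker lists were as follows, with counts to read against 5.47% of all genes called higher and 5.26% called lower. Fibroblast and mural markers had 0 of 15 called and a median of 0.15, summing to 2136 to 2538 CPM at 9 h against 1832 to 2298. Inner retina and glia markers had 2 of 12 lower, Cabp5 and Gad1, with a ratio of sums of 1.04. Melanocyte and Schwann markers had Edn3 (0.40) higher and 2 of 12 lower, both counted in other lists (Tyr and Kit), with a ratio of 1.08. Red blood cell markers had 1 of 6 higher, with a ratio of 1.3. Skeletal muscle markers had 12 of 12 negative values and none called, with a ratio of 0.535. Their sums differed within midday, at 1187 to 1386 CPM in the 5 h mice and 379 and 642 in the 6 h mice, against 320 to 819 at 9 h. The median of this list was 0.02 for 9 h against 6 h alone and -1.33 against 5 h alone. Lens and ciliary body markers had 1 of 9 higher, Wfdc1 (0.40), with a ratio of 1.02. No marker of these lists was at 0 in all 8 libraries. Their part in the results was not tested.

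**Figure D4:**
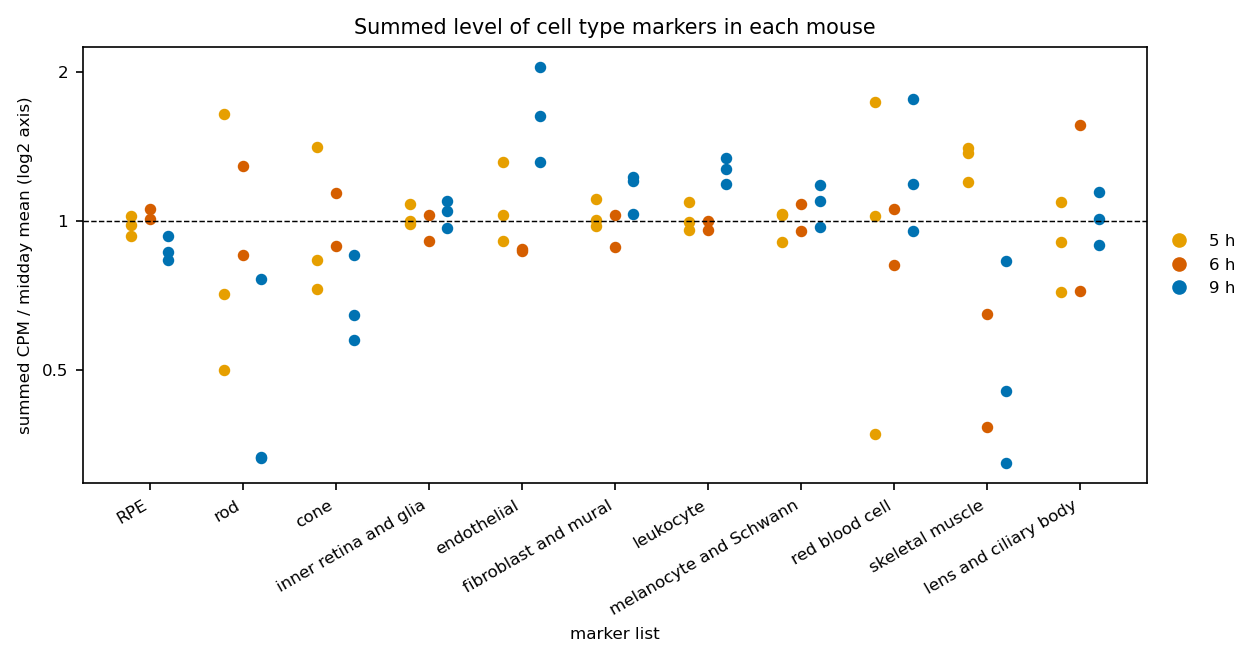
Summed CPM of each cell type marker list in each mouse, divided by the mean of the 5 midday mice, on a log2 axis. Endothelial (1.66) and leukocyte (1.26) sums at 9 h lie above 1, and RPE (0.876) and rod (0.476) sums below, with rods overlapping between groups.

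Over the whole day (22 libraries, without 6 h mouse 3 and 15 h mouse 3) the direction at 9 h was the extreme for some genes and not for others. Egr1 was highest at 15 h, with a mean of 180 CPM (n = 2), and lay at 67.0 at 9 h and 17.8 at 5 h. Fos followed the same order, with 17.5, 10.6 and 4.18. At 0 h the means were 55.7 CPM for Egr1 (range over mice 17 to 117) and 10.5 for Fos. Mt2 (13 CPM), Nr4a1 (46.7), Dusp1, Ier2, Mfge8, Rplp1 (896) and Tfeb had their highest mean at 9 h. For Dusp1 (55.7 at 9 h, 54.9 at 15 h) and Tfeb (41.8 and 41.4) the 15 h mean was nearly the same. Mtor (115), Hsp90aa1, Hspa8 (636), Hspa5, Cpt1a (206), Arntl (6.97), Optn, Rdh11 and Tax1bp1 had their lowest mean at 9 h. Hspa8 was close to that at 15 h (655). These means describe the 22 libraries and the order of times was not tested.

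**Figure D5:**
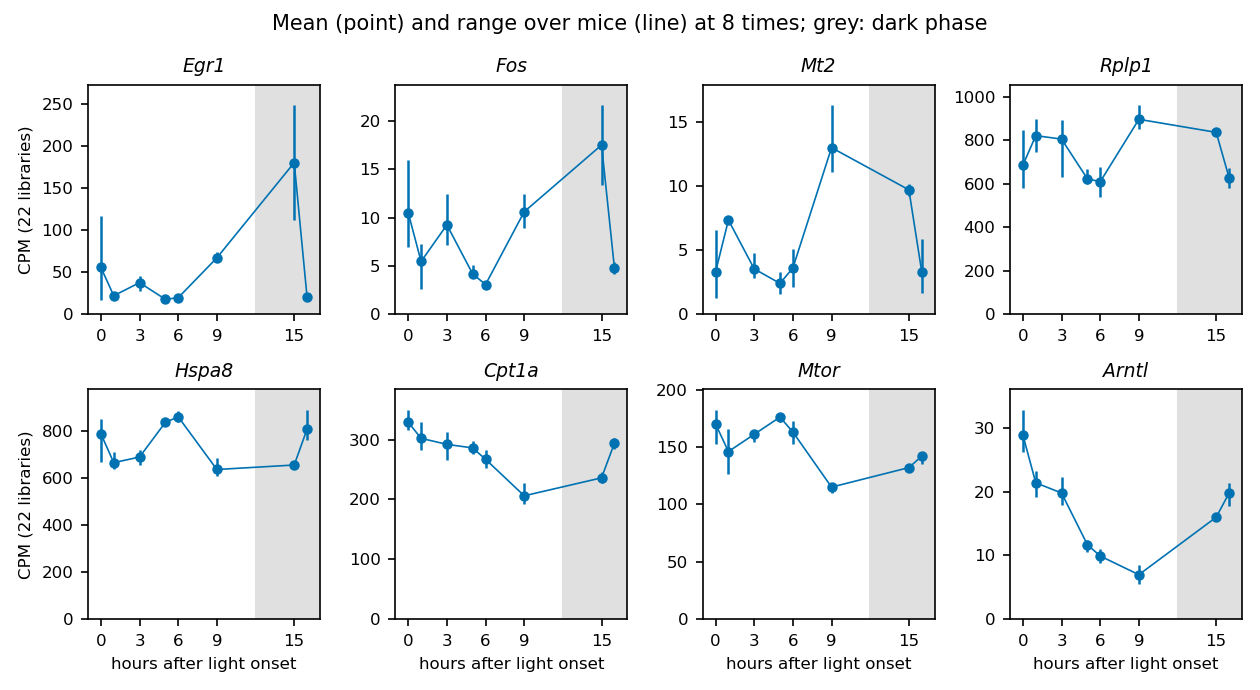
Mean CPM (point) and range over mice (vertical line) of 8 genes at 0, 1, 3, 5, 6, 9, 15 and 16 h after light onset in 22 libraries; grey marks the dark phase. Mtor reaches 115 CPM and Arntl 6.97 CPM at 9 h, their lowest means, while Egr1 reaches 180 at 15 h.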

How the data were processed

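Counts of reads per gene were deposited by the authors as 1 table with 24 library columns; per the submitters' processing notes the tools were STAR and HTSeq and the build mm10, with no version given. The library kit named in the labels' protocols does not mark strand. The 8 libraries used held 15569324 to 17121986 counts. In edgeR 4.0.16 (R 4.3.3), genes kept by filterByExpr (minimum count 10; 16925 of 54532 genes, 99.87% of counts) were scaled by TMM, and glmQLFTest with robust priors compared 9 h with midday as 1 group. P-values were adjusted by Benjamini-Hochberg over all genes tested, with calls under 0.05. Intervals are SE of log2 fold changes and SD of CPM. The same 8 libraries with a mean per time gave 6 h against 5 h. DESeq2 1.42.0 and limma-voom 3.58.1 were alternatives, and the steps were tested on simulated data. No 2 of the 28 pairs of libraries differed by less than sampling noise (lowest chi-square per degree of freedom 6.08).

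Members and lists were chosen with earlier results of these data known. Named genes were the 10 largest rises and falls among called genes with at least 5 CPM and no overlap between groups, all clock list members, up to 4 called members per other list (or the 1 of lowest p), and Optn, Tfeb, Rpe65 and Mertk. Other list members were named after their values were seen. Of the 131 genes this rule named, 40 share exonic bases with another gene in GENCODE vM21, 12 by over 10% (Mt2, Bhlhe41, Dbp, Atp1b1, Kcnj13, Atg4d, Atp6v0b, Fdft1, Uqcrc2, Hsp90b1, C1s1 and Timp3); reads of such pairs cannot be told apart without strand. Promoter sequences are from RefSeq. Some genes that the rule names or the lists hold are counted but not reported here.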

Additional observations from a re-analysis of the deposited data

Results flagged for a closer look

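Midday mice of 7 genes, of 131 examined, included 1 mouse set far apart from the other 4; chance alone sets apart about 1 group in 20. The 5 h mice held 3 of these: in mouse 1, Per2 was low at 76.6 CPM (other midday mice 86.7 to 88.9) and Bmp4 high at 439 (397 to 405), and in mouse 3, C1s1 was high at 81.0 (67.0 to 70.6). The 6 h mice held the rest. Mouse 1 was high in Tnfrsf19 at 83.4 CPM (72.7 to 75.4) and low in Col6a1 at 63.1 (73.4 to 76.7). Mouse 2 was high in Atp6ap2 at 344 CPM (294 to 307) and low in Mtor at 151 (172 to 176).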

How the results depend on the processing

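The count of called genes was 1815 (925 higher, 890 lower). It was 1 (1 higher, 0 lower) with all 24 libraries, 1 (1 higher, 0 lower) with 6 h mouse 3 kept, and 757 (402 and 355) against 5 h alone. Without a filter 1414 genes were higher. Leaving out 1 library gave 349 to 1961 genes, 207 to 1079 higher and 142 to 932 lower. The count fell by more than 1.5 times when 9 h mouse 1 (349), 9 h mouse 2 (723), 6 h mouse 1 (989) or 5 h mouse 2 (1050) was dropped. Each of the 1815 genes kept its sign in every setting that tested it. The settings share most of the libraries in which these genes were chosen, so this was largely set in advance. For 6 h against 5 h, 16 genes were called, none higher, by edgeR (1109 at an unadjusted p under 0.05). DESeq2 called 76 (9 higher, 67 lower), limma-voom 6 (1 and 5), the fit without a filter 252 (66 and 186) and 22 libraries 8 (all lower); leaving out 1 library gave 7 to 17, with 0 to 3 higher and 4 to 17 lower. Mice of different times share only a replicate number: deviations of same-numbered mice of 9 h and 5 h correlated at 0.0853, 0.0924 and -0.0766. The replicate block gave 1326 calls (713 higher, 613 lower), with gene length offsets as well 510 lower, and for 6 h against 5 h 5 higher; 90 of 109 called named genes were still called with the block. The causes were not tested. At these depths, genes under the count filter were not tested.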
